A study of Homo sapiens with 6 samples.

Results

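The genes described here encode the proteins that link the mitochondria to caspase activation and those that hold caspases in check: cytochrome c (CYCS), the adaptor APAF1, the initiator caspases CASP8 and CASP9, the inhibitor of apoptosis proteins (IAPs) XIAP, BIRC2 and BIRC6, and the IAP antagonist DIABLO. They were chosen by gene symbol, and all 8 were found among the 22933 gene symbols of the authors' deposited table. The cells were PC-3, an established line derived from human prostate adenocarcinoma. All cells of both groups carried the rtTA2 transactivator of the Tet-On system, selected with G418, and a tdTomato reporter expressed from a PGK promoter and used for sorting, and both groups were kept in 300 ng/ml doxycycline (Dox) for 4 hours. The TTP-tdTom group also carried tristetraprolin (TTP), an RNA-binding protein that promotes mRNA decay, under a Dox-dependent promoter, whereas the tdTom group carried the same vector without it, with 3 samples in each group. The cells were drug-selected and sorted, with no cloning step given, and this one cell line is the whole of the model in these data.

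The comparison asks which transcripts differ soon after TTP is induced. The authors' deposited table gives 1 FPKM value per group and locus (fragments scaled to the length of the transcript and to the number of mapped fragments), pooled by the authors over the samples of the group. Levels can therefore be compared between genes, but the spread between samples, the depth reached in each library and the counts behind each value are unknown, so that no test was run and no interval is given. Every ratio below is TTP-tdTom over tdTom and is a description of these pooled libraries. Because the RNA came from bulk cultures, less RNA per cell and fewer cells expressing a gene cannot be told apart.

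In the intrinsic pathway, cytochrome c leaves the mitochondria and binds APAF1, which assembles into the apoptosome and activates caspase-9, and caspase-9 in turn cleaves further caspases. In the extrinsic pathway, death receptors activate caspase-8 through the adaptor FADD. XIAP binds and inhibits caspases, BIRC2 (cIAP1) is a ubiquitin ligase of death receptor signalling, BIRC6 is a very large ubiquitin-conjugating IAP, and DIABLO (Smac) is released from mitochondria with cytochrome c and displaces IAPs from caspases. Cytochrome c also carries electrons in the respiratory chain, so that CYCS serves both respiration and cell death.

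TTP is known to bind AU-rich elements, whose core heptamer is written in RNA letters as UAUUUAU and in the DNA letters used here as TATTTAT. The longest annotated 3′UTR of each of the 8 genes in GENCODE release 29 was searched for this heptamer on the transcript strand, overlaps allowed. The 3 genes that held it are shown with their sites, since they set CYCS beside APAF1, another gene with 2 copies. Positions are those of the printed window on GRCh38, all of it in 3′UTR, and capitals mark the heptamer.
CYCS site 1, at chr7:25123668-25123694 on the minus strand: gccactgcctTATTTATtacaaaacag
CYCS site 2, at chr7:25122263-25122289 on the minus strand: gtcttattttTATTTATagaaatgtgg
APAF1 site 1, at chr12:98732909-98732935 on the plus strand: atactgtctgTATTTATtactgttatg
APAF1 site 2, at chr12:98735317-98735343 on the plus strand: gaaactcttgTATTTATgatatagctt
XIAP site, at chrX:123909017-123909043 on the plus strand: aaatttatttTATTTATttaattttct
The first CYCS heptamer begins at base 17 after the stop codon and the second at base 1422. In XIAP the single heptamer begins at base 1846 of a 3′UTR of 6798 bases. The other 5 genes held none in the annotated 3′UTR, which was 487 bases long for BIRC2, 995 for BIRC6, 1117 for CASP8, 1854 for DIABLO and 2952 for CASP9. The transcripts used for DIABLO and CASP9 matched none of the RefSeq names of their deposited rows. Of 10713 gene symbols with an annotated 3′UTR, 36.5% held at least 1 heptamer and 15.6% at least 2. A match is a description of sequence and not evidence of binding.

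Cytochrome c had the lowest ratio of the 8 genes, while its partner APAF1 was near the median gene. CYCS, whose locus lies on chromosome 7 of GRCh37 from 25158270 to 25164980, had an FPKM of 43.1 in tdTom cells and 17.1 in TTP-tdTom cells. This left 39.8% of the tdTom level, a log2 ratio of -1.33, and 2.86% of the 12511 gene symbols compared had a ratio as low or lower. The symbols compared are those with a mean FPKM of at least 1 over the groups and a value above 0 in both, and all 8 genes passed this filter. GENCODE release 29 holds 40 genes named as CYCS pseudogenes, only 1 of which had a row in the table, and how fragments that match several copies were assigned is not given in the sources used here.

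APAF1 was scarce in both groups, with an FPKM of 2.23 in tdTom cells and 1.93 in TTP-tdTom cells. Its log2 ratio of -0.21 was close to the median of -0.24 over all symbols compared, and became 0.032 when the ratios were centred on that median. The locus given for APAF1 spans 1339507 bases on chromosome 12 of GRCh37, from 99038926 to 100378432, and it also holds rows for ANKS1B and FAM71C, both below 0.6 FPKM in each group. The APAF1 row carries no other symbol, but whether its value comes from APAF1 alone was not tested. This limit holds for every APAF1 ratio given here. The FPKM of CYCS was 19.3 times that of APAF1 in tdTom cells and 8.87 times in TTP-tdTom cells. Such a ratio of 2 genes within a group does not depend on how the groups are scaled to each other.

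**Figure D1:**
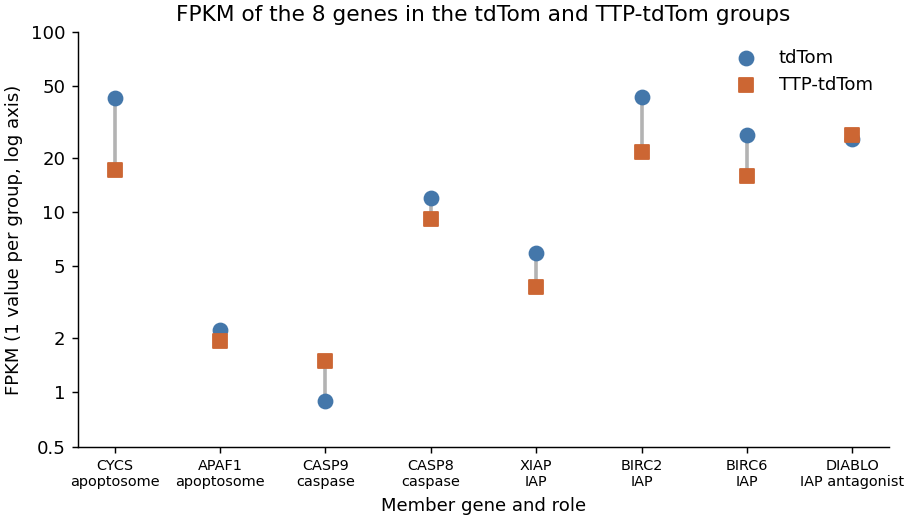
FPKM of the 8 genes (vertical log axis, 1 pooled value per group and no error) in tdTom cells (circles) and TTP-tdTom cells (squares), with the genes and their roles on the horizontal axis. CYCS moves from 43.1 to 17.1 and BIRC2 from 43.7 to 21.7, whereas DIABLO stays near 26 and CASP9 lies at or below 1.49.

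The initiator caspase CASP8 had a lower value with TTP, and CASP9 was scarce in both groups. CASP8, on chromosome 2 of GRCh37 from 202097708 to 202152434, had an FPKM of 12.0 in tdTom cells and 9.15 in TTP-tdTom cells, a log2 ratio of -0.40. CASP9, on chromosome 1 from 15818611 to 15851285, had 0.898 in tdTom cells and 1.49 in TTP-tdTom cells, a log2 ratio of 0.73. CASP9 was thus the lowest of the 8 genes in either group and the one with the highest ratio. It passed the filter only through the TTP-tdTom value, and with 1 added to each FPKM its log2 ratio was 0.39, below the 1.5-fold mark. In the decile of symbols with the lowest mean FPKM, which holds CASP9, 13.1% were higher with TTP by 1.5-fold or more, against 2.37% of all symbols compared.

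All 3 IAPs of the group had lower values in TTP-tdTom cells, as did 79.9% of all symbols compared. BIRC2, on chromosome 11 of GRCh37 from 102216498 to 102251731, was the most abundant of the 8 genes in tdTom cells, with an FPKM of 43.7, and had 21.7 in TTP-tdTom cells. Its log2 ratio was -1.01. BIRC6, on chromosome 2 from 32580578 to 32846187, had 27.0 and 15.8, a log2 ratio of -0.77. XIAP, on the X chromosome from 122993662 to 123047829, was far less abundant, with 5.95 and 3.84, a log2 ratio of -0.63. The summed FPKM of the 3 was 76.6 in tdTom cells and 41.4 in TTP-tdTom cells, which left 54.1%. Relative to the median symbol their log2 ratios were -0.77 for BIRC2, -0.53 for BIRC6 and -0.39 for XIAP, so that centring changed none of these directions.

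DIABLO, the antagonist of these proteins, had nearly the same value in both groups. It maps to chromosome 12 of GRCh37, positions 122692209 to 122712068, with an FPKM of 25.5 in tdTom cells and 27.0 in TTP-tdTom cells, a log2 ratio of 0.08. Relative to the median symbol the log2 ratio was 0.32. In tdTom cells the FPKM of DIABLO was 4.29 times that of XIAP and 0.585 times that of BIRC2. In TTP-tdTom cells it was 7.02 times that of XIAP and 1.24 times that of BIRC2. Set against the summed FPKM of XIAP, BIRC2 and BIRC6, DIABLO stood at 0.333 in tdTom cells and at 0.652 in TTP-tdTom cells. This ratio of the antagonist to the 3 IAPs was thus 1.95-fold higher with TTP, a value that no scaling between the groups can alter. It holds for these 3 IAPs only, as the sum leaves out BIRC3, BIRC5 and NAIP, which are given below. DIABLO had a higher transcript GC content (55.9%) than BIRC2 (37.3%), BIRC6 (43.1%) and XIAP (39.0%). The transcript used for DIABLO matched none of the RefSeq names of its row. The part of base composition in the ratio of DIABLO to the 3 IAPs was not tested.

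The order of the 8 levels changed at the top and not at the bottom. In tdTom cells it ran BIRC2, CYCS, BIRC6, DIABLO, CASP8, XIAP, APAF1 and CASP9, and in TTP-tdTom cells DIABLO, BIRC2, CYCS and BIRC6 led, followed by the same last 4 genes. BIRC2 and CYCS differed by less than 1 FPKM in tdTom cells, and BIRC6 and DIABLO by less than 2. Since the spread over samples is unknown, which neighbours in either order differ beyond it cannot be said.

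CYCS and BIRC2 were lower with TTP by 2-fold or more, 2 of the 8 genes, and none was higher by as much. Over the 12511 symbols compared, 8.30% were lower by 2-fold or more and 1.22% higher. At 1.5-fold, 4 of the 8 (CYCS, BIRC2, BIRC6 and XIAP) were lower and CASP9, which passed the filter only through the group where it is high, was higher, against 22.7% lower and 2.37% higher over all symbols. Of the 8 genes, 6 were lower by any amount, APAF1 only without centring, and so were 79.9% of all symbols. The median log2 ratio of the 8 was -0.51, beside -0.24 over all symbols. BIRC2 lay just past the 2-fold mark, and only CYCS stayed past it when the ratios were centred on the median symbol, when both groups were scaled to the same FPKM sum over loci with a symbol, or when 1 was added to each FPKM. Centring also changed the split over all symbols, from 87.2% of the 2-fold differences being lower to 70.1%. With no minimum FPKM that share was 54.0%, and with FPKM summed over all loci of a symbol it was 71.7%.

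**Figure D2:**
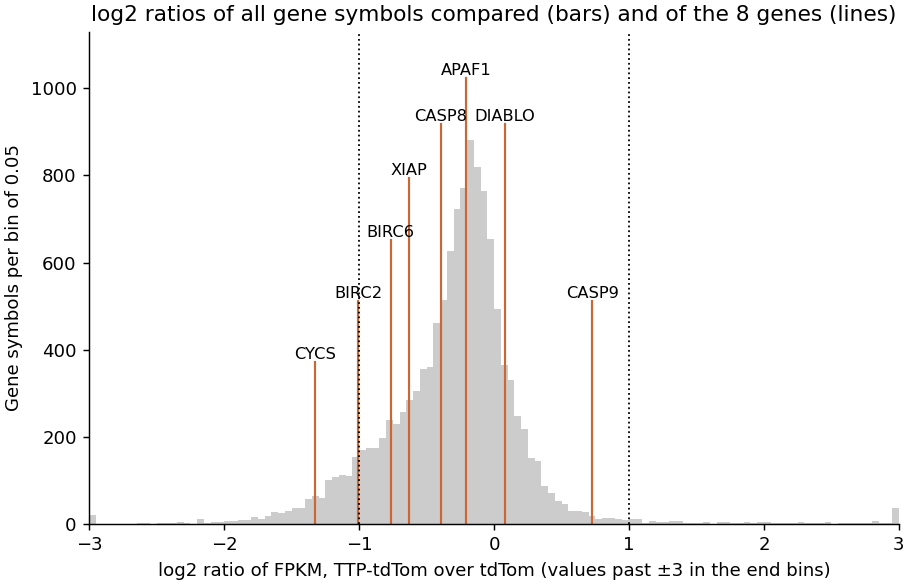
Number of gene symbols (bars, bins of 0.05) by log2 ratio of FPKM, TTP-tdTom over tdTom, for the 12511 symbols compared, with the 8 genes as labelled lines and dotted lines at 2-fold; 18 symbols below -3 and 36 above 3 are in the end bins. CYCS at -1.33 lies furthest to the left of the 8 and CASP9 at 0.73 furthest to the right, while APAF1, at -0.21 and at 0.032 after centring on the median symbol, lies in the centre of the bars.

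Across all genes the ratio moved with base composition, and the 8 genes are set against genes of like composition here. In the decile of symbols with the lowest transcript GC content the median log2 ratio was -0.77 and 29.6% were lower by 2-fold or more, and in the decile with the highest GC content these values were -0.09 and 0.746%. BIRC2 had a transcript GC content of 37.3%, within the lowest decile, and 29.1% of the symbols there had a ratio as low as its own or lower. XIAP, with 39.0%, had a log2 ratio of -0.63 beside a median of -0.57 in its decile. CASP8, with 42.6%, had -0.40 beside -0.42.

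CYCS was low among genes of like GC content. Its own was 41.6%, in the same decile as CASP8 and APAF1, and 3.45% of the symbols there had a ratio as low or lower. For APAF1 the share was 73.6%, and for BIRC6, with 43.1% GC, it was 16.7%. DIABLO and CASP9 had the highest GC contents of the 8, 55.9% and 52.8%, in deciles with median log2 ratios of -0.11 and -0.14, where 80.4% and 99.0% of the symbols had a ratio as low as theirs or lower. CASP9 passed the filter only through its TTP-tdTom value and lies in the lowest decile of levels, so that no standing is read from its share. The part of base composition in these ratios was not tested.

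**Figure D3:**
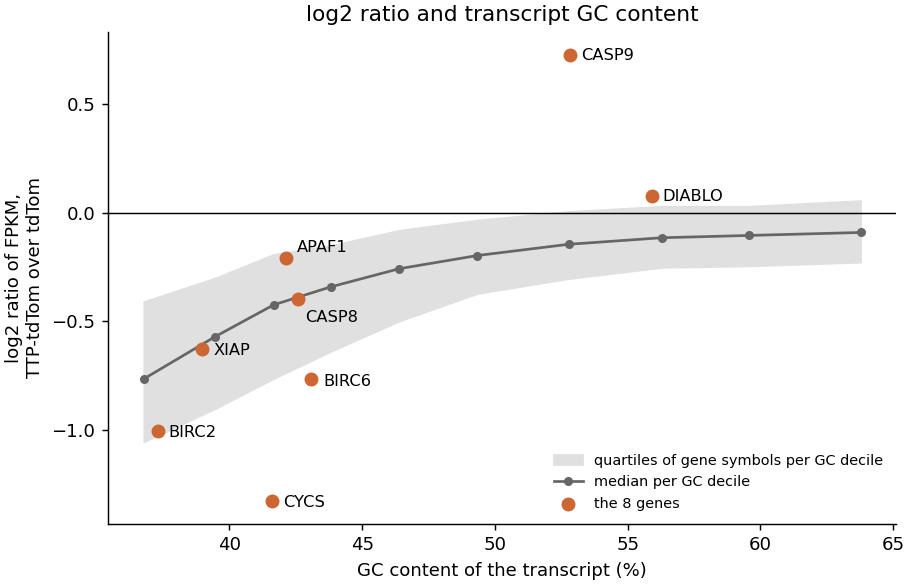
log2 ratio of FPKM, TTP-tdTom over tdTom (vertical axis), against the GC content of the longest-3′UTR transcript in percent (horizontal axis), with the 8 genes as labelled points and the median (line) and quartiles (band) of 10713 symbols in deciles of GC content. CYCS at 41.6% GC and -1.33 and BIRC6 at 43.1% and -0.77 lie below the band, and XIAP and CASP8 lie near the line. DIABLO at 55.9% GC and 0.08 and CASP9 at 52.8% and 0.73 lie above the band, with GC from transcripts that matched none of their rows' RefSeq names. CASP9 passed the filter only through its TTP-tdTom value, so that no standing is read from its place.

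The number of heptamers followed the ratio over all genes but did not order these 8. The median log2 ratio was -0.18 for the 6804 symbols with none, -0.36 for the 2233 with 1, -0.53 for the 887 with 2 and -0.63 for the 789 with 3 or more. The share lower by 2-fold or more was 4.28% with none and 24.5% with 3 or more. GC content moved along with these classes, from a median of 51.5% with no heptamer to 40.1% with 3 or more. So did the length of the 3′UTR, from a median of 938.5 bases to 4544, and the part of neither was tested. CYCS and APAF1 each held 2 copies, in 3′UTRs of 3610 and 2945 bases, and their log2 ratios were -1.33 and -0.21. The copies were not alike, since the first CYCS heptamer has a T on each side, as does that of XIAP, and neither APAF1 heptamer has. Such a flanked heptamer was held by 9.52% of all the 3′UTRs searched. The shorter pentamer ATTTA, which every heptamer contains, was counted 16 times in CYCS, 7 times in APAF1 and 20 times in XIAP, and 74.3% of the 3′UTRs held at least 1. BIRC2 and BIRC6 held no heptamer and had log2 ratios of -1.01 and -0.77, lower than XIAP with its 1 heptamer at -0.63, and they held 3 and 6 pentamers.

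Downstream of the initiators, the caspase CASP6, which cleaves nuclear lamins, had an FPKM of 9.66 in tdTom cells and 5.60 in TTP-tdTom cells, a log2 ratio of -0.79. CASP2, an initiator caspase, and CASP4, an inflammatory one, kept 86.9% and 93.5% of their tdTom levels. Of the 9 caspases in the list, 5 passed the filter, and 4 of these had a lower value with TTP, CASP9 being the exception, beside 79.9% of all symbols compared. Centred on the median symbol, CASP2 and CASP4 lay above 0, as their log2 ratios of -0.20 and -0.10 were higher than that median.

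Among the other IAPs, BIRC3 (cIAP2), the neighbour and close relative of BIRC2 on chromosome 11, had an FPKM of 9.66 in tdTom cells and 4.94 in TTP-tdTom cells. Its log2 ratio of -0.97 was close to that of BIRC2, and the FPKM of BIRC2 was 4.52 times that of BIRC3 in tdTom cells and 4.40 times in TTP-tdTom cells. BIRC5 (survivin), an IAP relative that acts in mitosis, had 44.9 and 38.5, a log2 ratio of -0.22 that turned to 0.019 on centring. NAIP, which has near-identical copies and is uncertain for that reason, had 2.92 and 2.09. BIRC7 and BIRC8 did not pass the filter, and all 6 IAPs that did were lower with TTP, BIRC5 only without centring, beside the 79.9% of all symbols that were lower.

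HTRA2, a mitochondrial protease that also antagonises IAPs, had an FPKM of 38.7 in tdTom cells and 37.7 in TTP-tdTom cells, a log2 ratio of -0.04 that became 0.015 with the groups scaled to the same FPKM sum and 0.20 on centring. Like DIABLO it kept nearly its whole level, 97.5%. HCCS, the enzyme that attaches haem to cytochrome c, had 17.7 and 12.3, a log2 ratio of -0.52. CYCS thus stood at 2.44 times HCCS in tdTom cells and at 1.40 times in TTP-tdTom cells.

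Around CASP8, the death receptor adaptors lay near 0. FADD, which recruits caspase-8, had an FPKM of 9.98 in tdTom cells and 11.5 in TTP-tdTom cells, a log2 ratio of 0.21. CFLAR, the catalytically inactive relative of caspase-8 that restrains it, had 14.4 and 12.7, a log2 ratio of -0.18 that turned to 0.059 on centring and to 0.27 with FPKM summed over both rows of the symbol. The FPKM of CASP8 was 0.839 times that of CFLAR in tdTom cells and 0.722 times in TTP-tdTom cells. The 5 adaptors lay between -0.18 and 0.21, TRADD among them in a row shared with the symbol B3GNT9. Of the receptors and ligands, 5 of 8 passed the filter, and their log2 ratios ran from -0.85 for TNFRSF10A to 0.14 for TNFSF10, the TRAIL ligand of that receptor. The row of TNFRSF25 also carries the symbols NOL9 and PLEKHG5, and its value cannot be given to TNFRSF25 alone.

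Of the 38 other genes of the apoptosis list with a row in the table, 26 passed the filter. Among these 26, ROCK1, a kinase cleaved by caspases, was the 1 gene lower by 2-fold or more, and none was higher by as much, beside 8.30% and 1.22% of all symbols. ROCK1 had an FPKM of 47.6 in tdTom cells and 20.5 in TTP-tdTom cells, a log2 ratio of -1.22 that became -0.98 on centring, short of 2-fold. The median log2 ratio of the 26 was -0.18, above the -0.24 of all symbols compared. The other caspase targets and nucleases, such as PARP1 and the DNA fragmentation factor subunits DFFA and DFFB, had log2 ratios of -0.32 or higher.

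**Figure D4:**
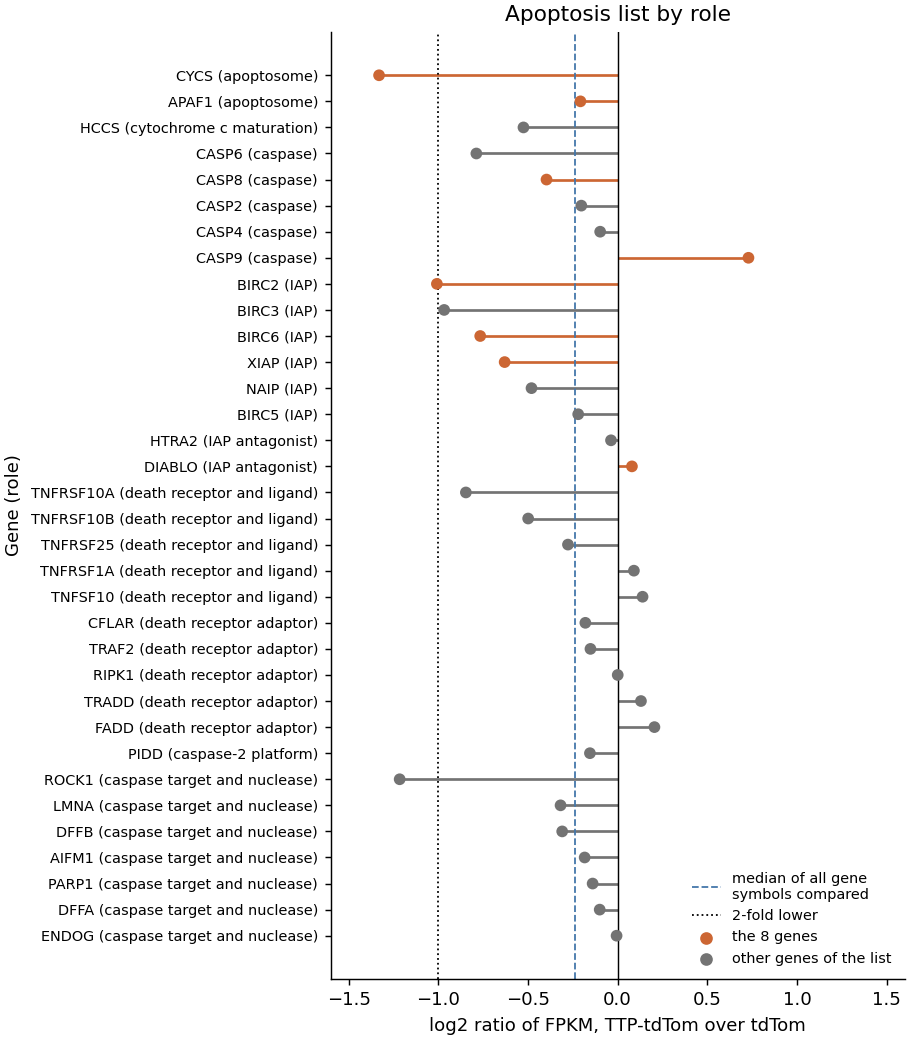
log2 ratio of FPKM, TTP-tdTom over tdTom (horizontal axis), of the 34 genes of the apoptosis list that passed the filter, grouped by role, with the 8 genes in colour, a dashed line at the median of all symbols compared and a dotted line at 2-fold lower. CYCS, ROCK1 and BIRC2 reach the dotted line, only CYCS after centring on the dashed line, and 12 genes between the dashed line and 0, such as APAF1, turn above 0 on centring, 2 of them (HTRA2 and ENDOG) also when the groups are scaled to the same FPKM sum.

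The targeted gene, ZFP36, which encodes TTP, had an FPKM of 5.56 in tdTom cells and 5.54 in TTP-tdTom cells, so that its own locus showed no rise, and whether fragments of the transgene were counted there was not analysed here. The direction of every comparison above rests on the table's group names. The 4 epithelial markers KRT8, KRT18, KRT19 and EPCAM were at an FPKM of 15.1 or more in each group. PTPRC and PECAM1, which mark leukocytes and endothelium, were at or below 0.793, and COL1A1, which marks fibroblasts, was at 4.34 and 4.56.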

How the data were processed

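The authors performed RNA-Seq on 3 tdTom and 3 TTP-tdTom samples of PC-3 cells. Strand-specific libraries were aligned with TopHat2 2.0.13 to Hs37D5 (GRCh37 with decoy sequence) and groups were compared with Cufflinks 2.2.1, versions as in the submitters' processing notes. The authors' deposited FPKM values, 1 per group at each of 406165 loci, were used. The table's columns of fold changes, p and q come from the comparison made by the authors and were not used. The study's methods give a planned number of read pairs per sample, but the depth reached is unknown, as FPKM values pooled over samples hold no counts.

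Ratios were computed here as log2 of TTP-tdTom over tdTom with no pseudocount. Where several loci shared a symbol, the row with most RefSeq names, then the highest FPKM, was taken. Symbols with a mean FPKM of at least 1 and values above 0 in both groups were compared, and a 2-fold difference was counted. As the design allowed for counts per sample, the count tests named there were not run. The genes named are the 8 members, genes of a fixed apoptosis list past 2-fold, and CASP6, BIRC3, BIRC5, HTRA2, CFLAR, FADD and HCCS. Some genes of that list are not reported here and were left out of its counts and medians. The remaining named genes were chosen after their values were seen, as examples or exceptions. The members and lists were chosen with earlier results of these data known.

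Transcripts came from GENCODE release 29 by symbol, and 85.6% of the symbols compared had a 3′UTR. The transcripts used for CASP9 and DIABLO matched none of the RefSeq names of their rows. GC content was divided into 10 equal classes. The functions were tested on simulated data. Alternatives were the fold, pseudocount, filter, centring, scaling and choice of locus. Python 3.11.15, numpy 2.4.6, pandas 2.3.3 and matplotlib 3.10.9 were used.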

Additional observations from a re-analysis of the deposited data

Results flagged for a closer look

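For 7 genes of the apoptosis list a second row carried the same symbol, and it was used only where FPKM was summed over loci. In 4 of these 7 rows the FPKM was higher in TTP-tdTom cells than in tdTom cells, beside 57.1% of the 7632 further rows of any symbol with a value above 0. The second CASP8 row had an FPKM of 1.22 in tdTom cells and 1.34 in TTP-tdTom cells. The second CFLAR row was listed at 0 in tdTom cells and reached 4.58 in TTP-tdTom cells. The second SEPT4 row had 0.333 and 0.947, and the second TNF row had 0.260 and 0.381. The second rows of BIRC3, at 0.697 and 0.378, FASLG, at 0.479 and 0.439, and TRAF2, at 0.025 and listed at 0, were lower. The deposited rows carry no strand, and whether these rows are transcripts of the opposite strand was not tested.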

How the results depend on the processing

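None of the alternatives measures the spread between samples, which is unknown. No paired analysis was possible because the table holds 1 value per group, and for the same reason no replicate could be left out in turn. The number of the 8 genes lower by 2-fold or more, 2, was 4 at 1.5-fold, where 1 was higher, and 1 with a pseudocount of 1, with centring on the median symbol and with scaling to the same FPKM sum, where 5.38%, 3.87% and 7.06% of all symbols were lower by as much. Over the whole list of 34 genes compared, the number lower, 3, was 8 at 1.5-fold, 1 with centring and 2 with a pseudocount of 1 or the same FPKM sum, beside 8.30% of all symbols at 2-fold and 22.7% at 1.5-fold, and the number higher, 0, was 1 at 1.5-fold. It was also 1 with no minimum FPKM, of 45 genes then compared (7.25% of all symbols were higher). With FPKM summed over all loci of a symbol it was 1 of 36, beside 3.30% of all symbols. The list's median log2 ratio turned from -0.20 to 0.034 on centring, which by construction adds 0.24 to each ratio. The same step put APAF1 at 0.032, BIRC5 at 0.019, HTRA2 at 0.20 and CFLAR at 0.059, scaling to the same FPKM sum put HTRA2 at 0.015, and summing over loci put CFLAR at 0.27, since its second row is listed at 0 in tdTom cells.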

Other observations

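Other rows of the table lay within the loci of 4 of the 8 genes. MIR558, a microRNA gene within BIRC6, had an FPKM of 104.5 in tdTom cells and was listed at 0 in TTP-tdTom cells. FPKM is scaled to transcript length, so that in so short a gene few fragments can give a high value. The counts are unknown, and no loss of MIR558 is read from these values. BIRC6 itself kept 58.8% of its level. The 2 rows without a symbol inside BIRC2 were higher in TTP-tdTom cells, at 1.33 and 1.89 against 0.532 and 1.36 in tdTom cells. The 2 inside BIRC6 were also higher, at 1.38 and 0.595 against 0.299 and 0.278. No share over all rows without a symbol is given here. Inside the long locus given for APAF1, FAM71C was lower in TTP-tdTom cells, at 0.171 against 0.231, and ANKS1B was higher, at 0.525 against 0.326. CYCS, XIAP, CASP9 and DIABLO had no other row within their loci.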
